A study of Homo sapiens with 6 samples.

Results

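SR and hnRNP splicing factor genes were examined in SKOV3 cells after knockdown of DNM3OS. The set was defined by gene symbol among protein-coding genes: the numbered SRSF genes, all HNRNP genes, the SF3A, SF3B and U2AF genes, and TRA2A, TRA2B, PTBP1, PTBP2, PTBP3, ESRP1, ESRP2, RBFOX2, QKI, MBNL1, MBNL2 and CELF1. It holds 63 of the 34834 annotated genes with a transcript in the quantification, with 655 transcripts between them. The rule used no measured value, but the set was chosen with earlier results of these data known. SKOV3 is an established line from a human ovarian cancer, and DNM3OS is a long non-coding RNA transcribed opposite the gene DNM3. The experiment asked which transcripts respond when DNM3OS is depleted. Every library came from SKOV3 cells given a 50 nM siRNA pool with Lipofectamine 2000, and cells were collected after 48 h. In 3 libraries the pool was directed at DNM3OS (a SMARTpool of 4 siRNAs, the knockdown group), and in the other 3 it was a non-targeting pool (the non-targeting group). The cell line and transfection were thus shared by both groups and no untransfected cells were compared. Nothing in the sources says whether libraries of a group came from separate cultures, so p-values measure the spread between these libraries, which may be technical. Among quantified transcripts that matched the annotation, 0 were of DNM3OS, and those without a match were not examined. The extent of the knockdown was thus not measured here.

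Pre-mRNA splicing removes introns after the spliceosome has recognised the 5′ splice site, the branch point and the 3′ splice site. SR proteins carry RNA-recognition motifs and an arginine- and serine-rich domain, bind mostly exonic enhancers and promote the use of nearby sites, whereas hnRNP proteins package nascent RNA and often repress nearby sites. U2AF binds the pyrimidine tract and AG of the 3′ splice site, and the SF3A and SF3B proteins are parts of the U2 snRNP that sits on the branch point. Many of these genes control their own level by making transcripts that keep an intron or gain an early stop codon, which nonsense-mediated decay (NMD) then degrades.

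The sequences below are examples of these classes. Retained-intron transcripts carried a large part of the counts described later, and NMD transcripts a small part. They were read from GRCh38 at 4 retained-intron and 4 NMD transcripts. These had the most counts among transcripts with the same length in the quantification and the annotation. The retained-intron transcripts also had to keep a whole intron of the canonical transcript. SRSF9-203 and HNRNPU-209, retained-intron transcripts with means of 999 and 122 counts per library, did not meet these conditions and are not shown. For each retained intron, the first line has 10 exon bases and 20 intron bases at the 5′ splice site, and the next line has 20 intron bases and 10 exon bases at the 3′ splice site. Capitals mark the intron's first and last dinucleotide. By annotation, SF3B2, on the plus strand of chromosome 11, keeps intron 2 of 21 (307 bases) in SF3B2-211 and intron 21 of 21 (340 bases) in SF3B2-216. HNRNPL-204 keeps intron 12 of 12 (603 bases) on the minus strand of chromosome 19. SRSF3-205, on the plus strand of chromosome 6, keeps 2 canonical introns, of which intron 5 of 5 (167 bases) is shown.
SF3B2-211, 5′ splice site, chr11:66052710-66052739: cacccgccagGTaggtgttggcggcgggac
SF3B2-211, 3′ splice site, chr11:66053007-66053036: gagtcctttctcttttgcAGactggcatcg
SF3B2-216, 5′ splice site, chr11:66068324-66068353: caaacagaagGTaggcgcttccaggggcgc
SF3B2-216, 3′ splice site, chr11:66068654-66068683: gtctctttctccctatacAGcaaaaaaaac
HNRNPL-204, 5′ splice site, chr19:38837364-38837393: aaaaacccaaGTgagtatctgtgtgtcctg
HNRNPL-204, 3′ splice site, chr19:38836771-38836800: aacttgtctctcctttgcAGatggtccata
SRSF3-205, 5′ splice site, chr6:36601785-36601814: ggtctcgtagGTaagatctttgataacttg
SRSF3-205, 3′ splice site, chr6:36601942-36601971: ttttttttttttttttttAGtcgatctagg
All 4 introns begin with GT and end with AG. The 18 bases before the AG were 100% pyrimidine in SRSF3, 83.3% in SF3B2-216 and 77.8% in both SF3B2-211 and HNRNPL-204.

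In the NMD transcripts, the annotated stop codon lies upstream of the last exon junction, the arrangement that marks a transcript for decay. The lines below give 30 transcribed-strand bases around each annotated stop codon, which is in capitals. QKI lies on the plus strand, and SRSF1, HNRNPUL2-BSCL2 and HNRNPH1 lie on the minus strand.
QKI-204, chr6:163565954-163565983: ttcccaacgaaaggcTAAgaattcaagaac
SRSF1-206, chr17:58006928-58006957: ttcgaggacccgcggTGAggcggcatgggg
HNRNPUL2-BSCL2-201, chr11:62707235-62707264: cgccacttcacgtttTAGccacaagtgact
HNRNPH1-238, chr5:179619296-179619325: ttcacaggaaatagcTGAaaaggctctaaa
In the spliced transcript, the stop lay 824 bases before the last junction in QKI-204, 391 in SRSF1-206, 1285 in HNRNPUL2-BSCL2-201 and 620 in HNRNPH1-238.

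Libraries held between 1610937 and 1995888 estimated counts, of which 93.62% to 95.22% fell on annotated transcripts, so 3 counts amounted to 1.61 to 1.97 CPM (a count divided by library size, at this point without TMM scaling). The splicing factor genes took few of them. Their share of annotated counts was 0.172%, 0.237% and 0.244% in knockdown libraries 1 to 3 and 0.292%, 0.224% and 0.276% in non-targeting libraries 1 to 3. Non-targeting library 2 lay below knockdown libraries 2 and 3, so the groups overlapped. Cytosolic ribosomal protein genes, which build the translation machinery, put the libraries in the same order, at 0.236%, 0.389% and 0.404% against 0.552%, 0.325% and 0.532%. Knockdown library 1 and non-targeting library 2 were the lowest of their group for both sets. The epithelial keratin gene KRT8 was well covered in every library (1195 to 2566 counts), as was ERBB2 (311 to 872 counts). MUC1 was listed at 0 in all libraries, EPCAM had 16 to 32 counts, and the immune marker PTPRC had 91 to 148 counts, where CD3E had at most 2. Summed over the lists, 9 epithelial markers gave 978 to 2283 CPM after knockdown and 1139 to 1753 CPM in the non-targeting group, 5 fibroblast markers 47.7 to 54.9 and 37.7 to 58.9 CPM, 4 immune markers 105 to 126 and 94.6 to 111 CPM, and 3 endothelial markers 16.8 to 31.2 and 18.99 to 26.5 CPM.

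**Figure D1:**
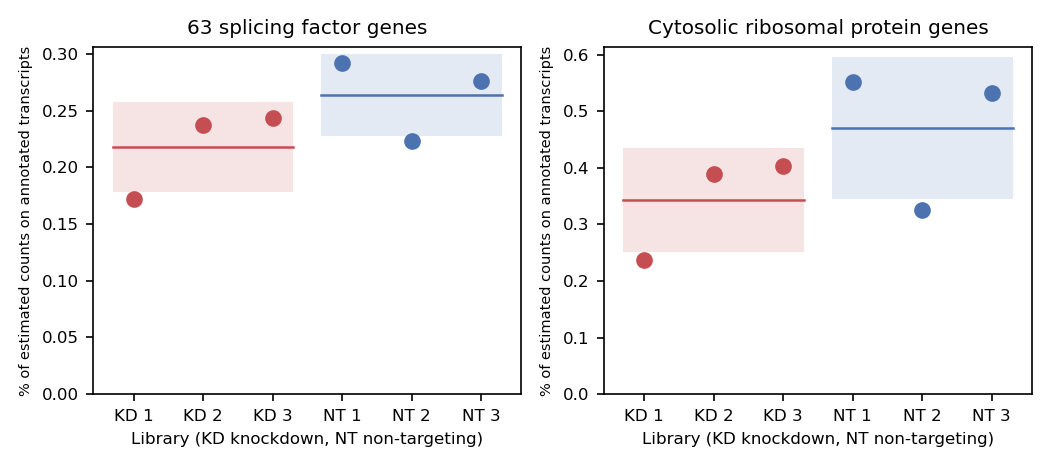
Share of each library's estimated counts on annotated transcripts (y axis, %) held by the 63 splicing factor genes (left) and by cytosolic ribosomal protein genes (right), with each point 1 library, lines the group means and shaded bands ± 1 SD (n = 3 per group). Knockdown library 1 and non-targeting library 2 are the lowest of their group in both panels, and the groups overlap in both.

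Gene levels were compared with edgeR's exact test on 11814 genes that passed a filter on low counts, with Benjamini-Hochberg adjustment, and a call needed both an adjusted p below 0.05 and a difference of 2-fold or more. Of the 63 splicing factor genes, 50 passed the filter and 0 were called (background: 0.00846% of tested genes called down and 0% called up). The adjusted p was 1 for each of the 50. At an unadjusted p below 0.05, 6 had a lower level after knockdown (background 1.91%) and 0 a higher one (background 1.01%). The 6 were HNRNPUL2-BSCL2 (ENSG00000234857, GRCh38 chr11:62690275-62727384, minus strand), SRSF6 (ENSG00000124193, chr20:43457893-43466046, plus strand), HNRNPA1 (ENSG00000135486, chr12:54280193-54287088, plus strand), HNRNPC (ENSG00000092199, chr14:21209136-21269494, minus strand), SRSF11 (ENSG00000116754, chr1:70205682-70253052, plus strand) and HNRNPL (ENSG00000104824, chr19:38836370-38852347, minus strand). edgeR's quasi-likelihood test also called 0, with 6 lower at an unadjusted p below 0.05 (background 1.85%), and DESeq2 called 0, with 4 lower (background 1.35%).

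The direction was unevenly spread, and in bulk RNA fewer cells with a transcript and less of it per cell cannot be told apart. The mean was lower after knockdown in 41 of the 50 tested members and higher in 9, with a median log2 fold change (knockdown minus non-targeting) of -0.32 and a range from -1.32 to 0.36. Over all tested genes, 49.4% were lower and the median was 0.0042. Without the filter, 47 of 58 members with a fold change were lower and the median was -0.34. In 5 members all knockdown libraries lay below all non-targeting libraries (background 3.56% of tested genes), namely SF3B3, HNRNPR, SRSF11, SRSF3 and SRSF6, and in 0 tested members all lay above (background 4.42%). By role, 11 of 14 SR genes were lower (median -0.20), 20 of 22 hnRNP and PTB genes (median -0.48), 6 of 9 branch point and 3′ splice site factors (median -0.15) and 4 of 5 regulators of tissue-specific exons (median -0.31). The plot of log2 fold changes shows all 50 with their standard errors.

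**Figure D2:**
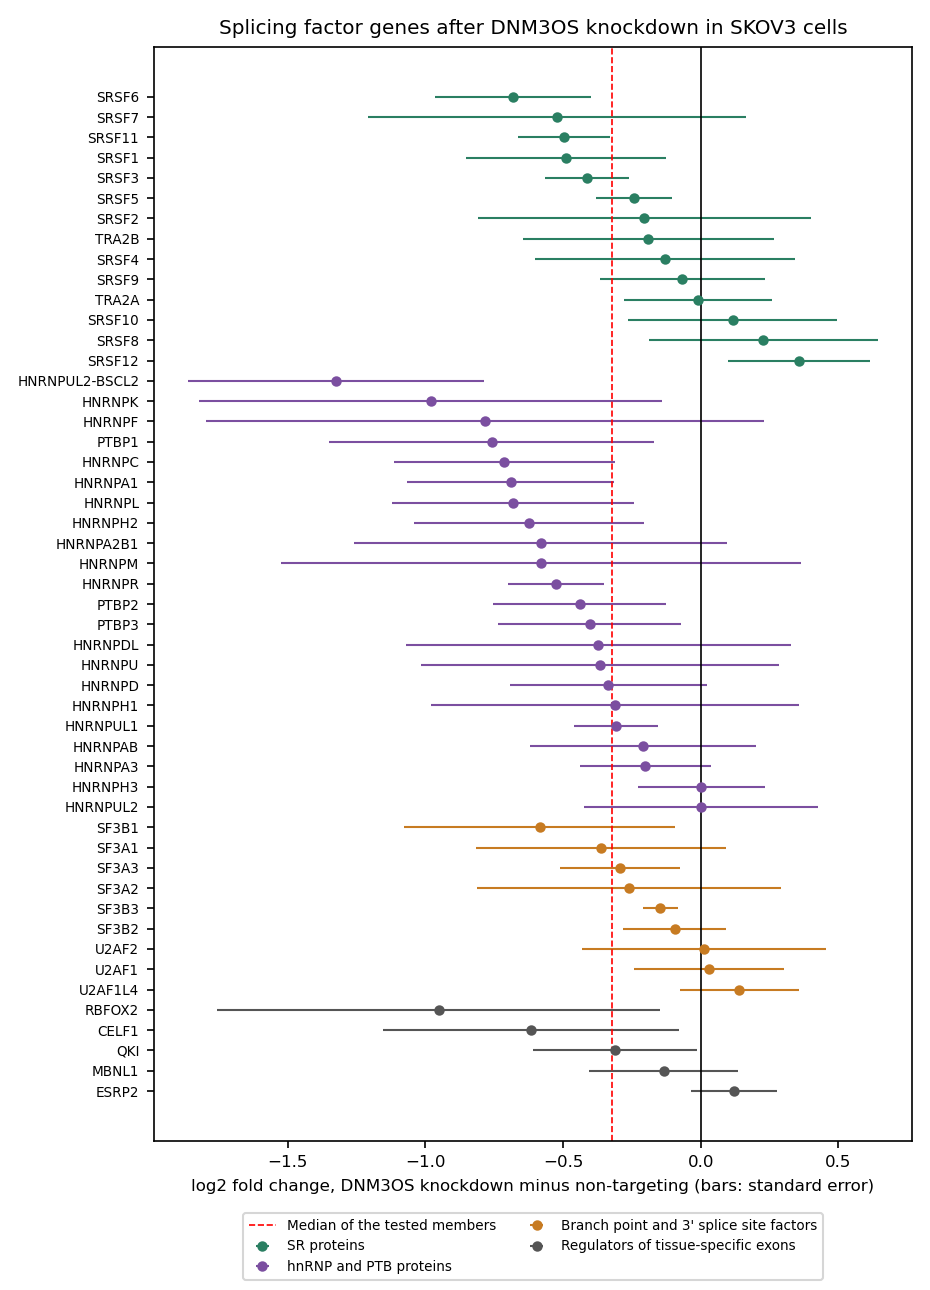
Log2 fold change of each tested splicing factor gene (x axis, knockdown minus non-targeting, points, with bars of ± 1 standard error, n = 3 per group), grouped by role, with the dashed line at the median of -0.32. Of the 50 points, 41 lie left of 0, HNRNPUL2-BSCL2 is the lowest at -1.32 and SRSF12 the highest at 0.36, and 0 passed the adjusted test.

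The size of the difference varied with the libraries included, while the median stayed below 0 with any single library left out. The median over the 50 members of log2 CPM minus the gene's mean was -0.81, 0.10 and 0.11 in knockdown libraries 1 to 3 and 0.39, -0.12 and 0.29 in non-targeting libraries 1 to 3. Knockdown libraries 2 and 3 lay between non-targeting library 2 and the other non-targeting libraries, and knockdown library 1 lay far below all others. The same median over ribosomal protein genes was -1.09, 0.11 and 0.19 against 0.62, -0.26 and 0.61, with the same library lowest in each group. Without knockdown library 1, 34 of 53 members were lower, the median was -0.13 and 0 had an unadjusted p below 0.05 (background 1.33% lower). That count was also 0 without non-targeting library 1 (background 0.566%), 1 without non-targeting library 3 (1.05%) and 12 without non-targeting library 2 (5.32%). With the ribosomal protein share of each library as a covariate, an alternative added after seeing the data, 22 of 50 members were lower and the median was 0.05. Without both knockdown library 1 and non-targeting library 2, also added after seeing the data, 43 of 53 were lower, the median was -0.23, and 11 had a lower level at an unadjusted p below 0.05. The share of all tested genes lower at that p was 5.62% there, and 72 of 11975 genes (0.601%) had an adjusted p below 0.05. In that smaller comparison HNRNPA1 had a log2 fold change of -0.66 with an adjusted p of 0.0418, short of the 2-fold threshold.

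**Figure D3:**
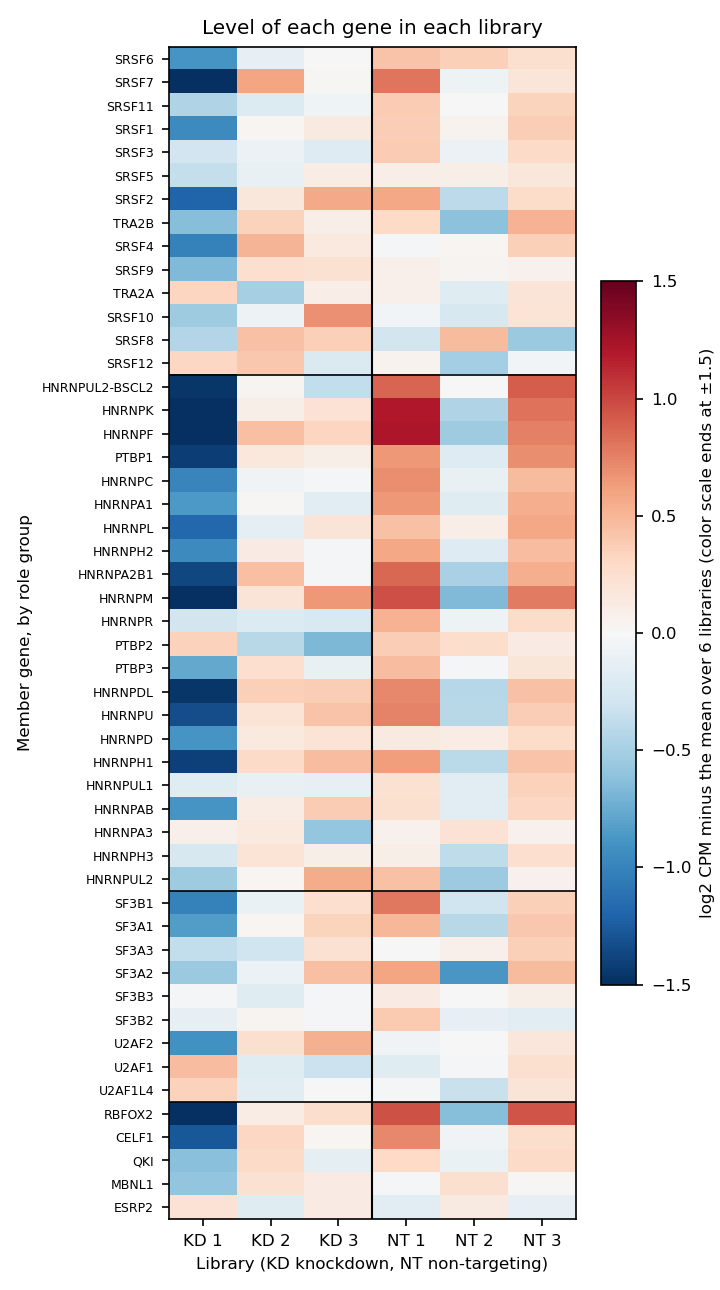
Log2 CPM minus the gene's mean over the 6 libraries (colour, blue low and red high, ending at ± 1.5) for the 50 tested splicing factor genes (rows, by role) in each library (columns). The blue column is knockdown library 1 (median -0.81), the red columns are non-targeting libraries 1 and 3 (medians 0.39 and 0.29), and knockdown libraries 2 and 3 (0.10 and 0.11) are pale.

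SR genes held the most counts of the 4 role groups in all libraries except non-targeting library 1, where the hnRNP and PTB genes held 41.0% and SR genes 40.3%. Much of this was SRSF9. SRSF9, an SR protein with a short arginine- and serine-rich domain, gave 400, 751 and 740 CPM in knockdown libraries 1 to 3 and 668, 649 and 662 in non-targeting libraries 1 to 3. Knockdown library 1 was the lowest and knockdown libraries 2 and 3 the highest, and the log2 fold change was -0.07 ± 0.30 (SE, n = 3 per group, unadjusted p = 0.814). It was also the highest member per length of transcript, at a mean TPM (an abundance scaled to transcript length) of 595, and it held 22.02% to 29.1% of all member counts, nearly all of them on a transcript that lies opposite another gene (described further on). SRSF4, a larger SR protein, gave 36.8, 107 and 83.5 CPM against 74.1, 76.6 and 97.1 CPM. Its groups overlapped on both sides, with a log2 fold change of -0.13 ± 0.47 (exact test p = 0.730).

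SRSF11 and SRSF6 were the SR genes with the smallest p. SRSF11, also known as p54, gave 46.5, 55.4 and 61.1 CPM after knockdown and 83.7, 63.5 and 81.2 CPM in the non-targeting group. Each knockdown library lay below each non-targeting library, by a small margin for knockdown library 3, and the log2 fold change was -0.50 ± 0.17 (SE, n = 3 per group, unadjusted p = 0.0361, adjusted p = 1 by edgeR's exact test). SRSF6, which, like SRSF4, has a long arginine- and serine-rich domain, gave 15.8, 27.7 and 30.2 CPM against 41.0, 39.3 and 35.9 CPM. Its groups did not overlap either, and the log2 fold change was -0.68 ± 0.28 (unadjusted p = 0.0234, adjusted p = 1 by the same test). SRSF3, which regulates its own splicing, had a mean of 35.3 ± 2.4 CPM against 46.8 ± 7.8 CPM (SD, n = 3), with groups apart and an unadjusted exact test p of 0.0937.

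SRSF12 and SRSF8 had higher means after knockdown. SRSF12, described as a repressor of splicing, gave 22.8, 24.3 and 15.4 CPM against 18.8, 12.4 and 17.7 CPM. Knockdown library 3 lay below both non-targeting libraries 1 and 3, and the log2 fold change was 0.36 ± 0.26 (exact test p = 0.290). SRSF8, a close relative of SRSF2, gave 11.6, 22.3 and 21.1 CPM against 13.1, 22.9 and 10.6 CPM. The highest library was a non-targeting library, and the log2 fold change was 0.23 ± 0.42 (exact test p = 0.607). Among the other SR genes, the log2 fold change was -0.52 for SRSF7, -0.49 for SRSF1, -0.24 for SRSF5, -0.20 for SRSF2, -0.19 for TRA2B, -0.01 for TRA2A and 0.12 for SRSF10. SRSF7, at low counts, gave 1.86, 12.2 and 7.72 CPM after knockdown. SRSF1 and SRSF2 are the founding SR proteins that bind exonic enhancers, TRA2A and TRA2B are SR-like activators that bind GAA-rich enhancers, and SRSF10 acts as a repressor when dephosphorylated.

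The hnRNP and PTB genes had the lowest median. HNRNPU, a nuclear matrix and chromatin-associated RNA-binding protein, gave 60.5, 178 and 208 CPM in the knockdown group and 259, 115 and 199 CPM in the non-targeting group. The range within each group was wider than the difference between groups, and the log2 fold change was -0.37 ± 0.65 (SE, n = 3 per group, exact test p = 0.404). Of its counts, 99.8% lay on transcripts that overlap, at least in part, an exon on the other strand. HNRNPA1, which binds UAG-containing silencers and represses exons, gave 44.2, 82.4 and 72.3 CPM against 129, 71.4 and 119 CPM. Non-targeting library 2 lay among the knockdown libraries, and the log2 fold change was -0.69 ± 0.38 (unadjusted p = 0.0281, adjusted p = 1 by edgeR's exact test). HNRNPL, which binds CA-rich elements, gave 23.3, 49.3 and 62.5 CPM against 74.1, 58.3 and 81.8 CPM. Knockdown library 3 lay above non-targeting library 2, and the log2 fold change was -0.68 ± 0.44 (unadjusted p = 0.0487, adjusted p = 1).

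HNRNPUL2-BSCL2 had the lowest log2 fold change of the members. It is a readthrough gene whose exons are shared with HNRNPUL2 and BSCL2, so how its counts were divided among those genes is uncertain. It gave 2.33, 8.78 and 6.32 CPM against 16.5, 8.51 and 17.1 CPM. Non-targeting library 2 lay just under knockdown library 2, and the log2 fold change was -1.32 ± 0.54 (SE, n = 3 per group, unadjusted p = 0.0131, adjusted p = 1 by edgeR's exact test), on a mean of 16.5 counts per library. HNRNPUL2 itself gave 4.65, 7.43 and 11.2 CPM against 10.3, 4.58 and 7.65 CPM, with a log2 fold change of 0.00 ± 0.43. Its highest library was in the knockdown group. HNRNPH3, a relative of the G-run binder HNRNPH1, gave 26.1, 35.8 and 33.0 CPM against 33.0, 23.6 and 37.1 CPM. Its log2 fold change was 0.00 ± 0.23, and the sign of both turned under RLE scaling (-0.0029 for HNRNPH3 and -0.0039 for HNRNPUL2).

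HNRNPC, which binds uridine tracts and competes with U2AF2, was lower after knockdown at 38.7 ± 13.4 CPM against 62.8 ± 17.4 CPM (SD, n = 3), with a log2 fold change of -0.71 (unadjusted exact test p = 0.0336) and overlapping groups. HNRNPR had groups that did not overlap, at 24.4 ± 0.64 CPM against 35.0 ± 7.3 CPM, with a log2 fold change of -0.52 (exact test p = 0.0548). The polypyrimidine tract-binding repressors were all lower in mean, with log2 fold changes of -0.76 for PTBP1, -0.44 for PTBP2 (its neural paralog) and -0.40 for PTBP3. The other tested members ranged from -0.98 for HNRNPK, a poly(C)-binding protein, through HNRNPF (-0.78), HNRNPH2 (-0.62), HNRNPA2B1 (-0.58), HNRNPM (-0.58), HNRNPDL (-0.37), HNRNPD (-0.34), HNRNPH1 (-0.31), HNRNPUL1 (-0.31) and HNRNPAB (-0.21) to HNRNPA3 (-0.20). HNRNPF and the HNRNPH proteins bind runs of G, and HNRNPD binds AU-rich elements that govern mRNA decay. HNRNPK had 8.84 CPM in knockdown library 1 and 37.8 and 41.4 CPM in the others, against 25.5 to 83.2 CPM in the non-targeting group.

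Among factors that act at the branch point and 3′ splice site, SF3B3, a beta-propeller scaffold of SF3B, gave 68.8, 61.5 and 68.8 CPM after knockdown and 76.3, 70.1 and 74.1 CPM in the non-targeting group. Its groups did not overlap, but the difference was small, with a log2 fold change of -0.15 ± 0.06 (SE, n = 3 per group, exact test p = 0.500 by edgeR's exact test). SF3B2, another SF3B subunit, gave 56.3, 63.5 and 61.1 CPM against 81.5, 56.3 and 54.7 CPM, where a single non-targeting library was high (-0.10 ± 0.19, exact test p = 0.715). SF3B1, the subunit that holds the branch-point helix and is recurrently mutated in blood cancers, gave 16.3, 31.7 and 40.7 CPM against 59.8, 27.5 and 44.1 CPM. Its groups overlapped, and the log2 fold change was -0.59 ± 0.49 (exact test p = 0.135). SF3A3, a subunit of SF3A, gave 23.7, 25.0 and 36.5 CPM against 30.8, 32.7 and 40.0 CPM (-0.29 ± 0.22, exact test p = 0.329), also with overlap.

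U2AF1, the small U2AF subunit that reads the AG, gave 40.9, 25.7 and 23.2 CPM against 25.6, 28.8 and 34.7 CPM. Knockdown library 1 was here the highest of all, and the log2 fold change was 0.03 ± 0.27 (exact test p = 0.974). Its paralog U2AF1L4 gave 21.9, 14.9 and 16.8 CPM against 16.5, 13.1 and 19.4 CPM (0.14 ± 0.22, exact test p = 0.713). Neither paralog separated the groups. The large subunit U2AF2 had a log2 fold change of 0.01, SF3A1 of -0.36 and SF3A2 of -0.26. With each library left out in turn, SF3B3 stayed between -0.17 and -0.10, whereas U2AF1 ranged from -0.27 to 0.18.

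MBNL1, a muscleblind regulator of alternative exons, had the highest CPM of the regulators of tissue-specific exons (per length ESRP2 was higher, at a mean of 42.1 against 32.4 TPM), at 46.5, 83.1 and 77.2 CPM after knockdown and 70.1, 83.8 and 71.8 CPM in the non-targeting group (-0.13 ± 0.27, exact test p = 0.638). ESRP2, an epithelial regulator of exons, gave 45.1, 33.8 and 42.1 CPM against 34.2, 42.6 and 35.3 CPM (0.12 ± 0.16, exact test p = 0.645). Both overlapped between groups. QKI, a STAR-domain RNA-binding protein, gave 23.7, 45.9 and 33.7 CPM against 46.1, 34.7 and 45.9 CPM (-0.31 ± 0.30, exact test p = 0.310). RBFOX2, which binds GCAUG elements, gave 1.40, 7.43 and 8.42 CPM against 14.2, 3.93 and 14.1 CPM, with only 3 counts in knockdown library 1 (-0.95 ± 0.80, exact test p = 0.161). CELF1, a binder of GU-rich elements, gave 3.26, 12.2 and 9.82 CPM against 16.5, 9.17 and 11.8 CPM, with a log2 fold change of -0.62 ± 0.54 (exact test p = 0.245). None of the 5 reached an unadjusted p below 0.05.

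The remaining 13 members did not pass the filter, and the highest count any of them reached in a library was 24. They are SF3B4, SF3B5 and SF3B6, HNRNPA0, HNRNPLL, the HNRNPA1 copies HNRNPA1L2 and HNRNPA1L3, the HNRNPC-like genes HNRNPCL1, HNRNPCL2, HNRNPCL3 and HNRNPCL4, MBNL2, and ESRP1, the epithelial partner of ESRP2. HNRNPA1L3 and the 4 HNRNPC-like genes were listed at 0 in all 6 libraries. These 5 and HNRNPA1L2 are near-identical to other members, so reads may have been assigned elsewhere. ESRP1 had 3.26, 2.701 and 2.11 CPM after knockdown and 1.71, 1.31 and 0 CPM in the non-targeting group, which separates the groups but at a mean of 3.08 counts per library.

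Other genes of the splicing pathway were listed by function. Of 49 core spliceosome genes, 41 were tested and 35 had a lower mean after knockdown (median log2 fold change -0.27). At an unadjusted p below 0.05, 1 of the 41 was lower, near the background of 1.91% of tested genes. It was the helicase gene DHX38 (20.5 ± 4.4 against 32.7 ± 5.4 CPM, SD, n = 3, -0.69, exact test p = 0.0205). Of 10 genes for SR protein kinases and import, 9 were tested and 7 were lower (median -0.35). Of 14 NMD factors, 11 were tested and 10 were lower (median -0.25). At an unadjusted p below 0.05, 1 of the 11 was lower (same background of 1.91%). It was the exon junction complex gene RBM8A, at 22.8 ± 1.6 against 41.1 ± 11.6 CPM (-0.85, exact test p = 0.00399). In these lists 0 genes were called. Ribosomal protein genes, by comparison, were lower in 76 of 81 tested (median -0.55).

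A large part of the counts on splicing factor genes lay on transcripts annotated as retained-intron or NMD transcripts. Retained-intron transcripts held 43.1% ± 3.0 of member counts after knockdown and 37.7% ± 4.9 in the non-targeting group (SD, n = 3), and NMD transcripts held 5.60% ± 1.28 and 5.38% ± 0.64. Both classes together held 50.6%, 47.7% and 47.7% in knockdown libraries 1 to 3 and 37.7%, 48.6% and 43.1% in non-targeting libraries 1 to 3. Non-targeting library 2, low in member counts, was within the knockdown range, so the groups overlapped, and the difference of means was 5.57 percentage points. Without SRSF9, both classes held 30% ± 3.0 and 25.6% ± 3.6. Over all protein-coding genes, retained-intron transcripts held 11.5% to 14.8% of counts in a library, and 14.9% to 17.8% without PLLP, with knockdown library 1 the highest in both. NMD transcripts held 9.44% to 11.54% over all protein-coding genes, more than among the members. Only the retained-intron share of the members was thus above that of all protein-coding genes.

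**Figure D4:**
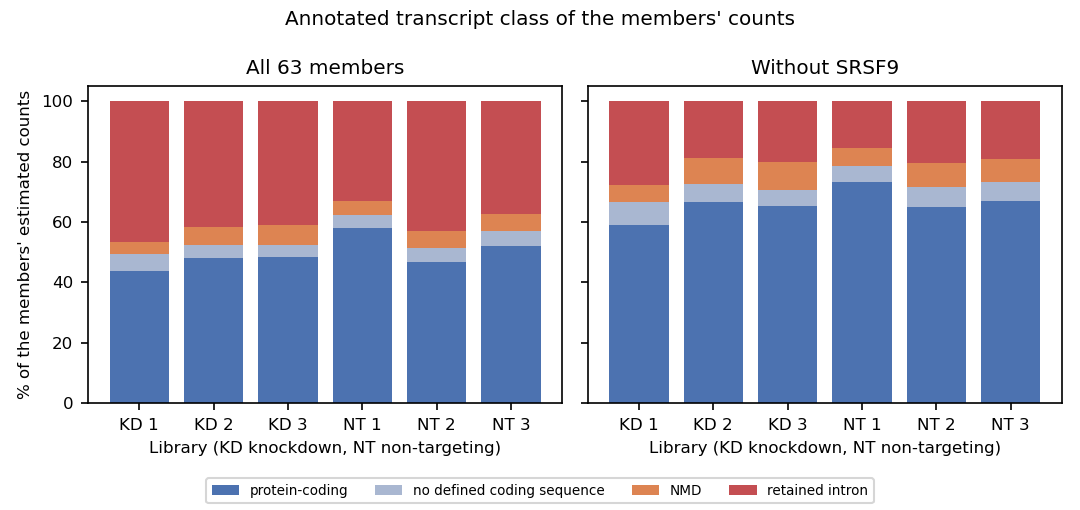
Share of the counts on the 63 splicing factor genes (y axis, %) by annotated transcript class, in each library (bars), for all members (left) and without SRSF9 (right). Retained-intron transcripts hold 43.1% on average after knockdown and 37.7% in the non-targeting group on the left, and 22.2% and 18.4% on the right.

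SRSF9 carried most of the retained-intron counts. Its transcript SRSF9-203 (ENST00000548326, a retained-intron transcript of 1704 bases on the minus strand of chromosome 12) held 95.7% ± 1.0 of SRSF9 counts after knockdown and 94.2% ± 1.3 in the non-targeting group. The coding transcript SRSF9-201 had a mean of 34.5 counts per library. All bases of SRSF9-203 lie opposite an exon of GATC, which itself had 2253 to 2940 counts per library, and whether the strand was used in assigning reads is not stated. Transcripts overlapping an exon on the other strand held 47.6% to 53.1% of all member counts, against 54.1% to 62.1% over all protein-coding genes (44.9% to 50.7% without PLLP, the most counted gene). By member, the share was 99.3% for SRSF9, 99.8% for HNRNPU (opposite COX20 and a second gene), 96.5% for SRSF2 (opposite MFSD11) and 100% for HNRNPA3 (opposite NFE2L2). A transcript with any overlap was included, and the overlap was often a small part of it. In SRSF9-203 it covered 100% of bases, against 22.85% in HNRNPU-201 and 14.68% in HNRNPU-209, both opposite the second gene. HNRNPU-208, opposite COX20, had a mean of 5.71 counts per library. The libraries were stranded, and if the strand was not used, reads of these genes and of their neighbours on the other strand were not separated in such overlaps. How far this shaped the results was not tested. In a fit without transcripts opposite an exon, 32 of 39 members were lower after knockdown, with a median log2 fold change of -0.42, and 0 were called. Of all 8732 genes in that fit, 49.9% were lower. In the main fit, among the 31 tested members with no counts on transcripts opposite an exon, 25 were lower after knockdown, with a median log2 fold change of -0.40. Among the 19 with such counts, 16 were lower, with a median of -0.26. All 6 members with an unadjusted p below 0.05 and all 5 with groups apart had no such counts.

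Other members also drew many of their counts from these classes. U2AF1 had 22.3% of its counts on NMD and 76.95% on retained-intron transcripts, and U2AF1L4 had 98.6% on retained-intron transcripts. QKI had 76.4% and SRSF1 45.0% of counts on NMD transcripts, and HNRNPUL2-BSCL2 had all of them on HNRNPUL2-BSCL2-201. In SF3B2, whose transcripts annotated to keep an intron are printed above, retained-intron transcripts held 73.6% of counts. Of the 1440 bases of SF3B2-211, 1163 lie outside the exons of the canonical transcript, as do 3645 of the 3932 bases of SF3B2-216. Whether the reads came from the printed introns was not tested. SRSF3 had 58.6% and HNRNPL 48.2% on this class, while SRSF4, SRSF8, HNRNPF and HNRNPH2 had at least 99.7% on protein-coding transcripts. SRSF11 had 6.82% on protein-coding transcripts, and its most counted transcript, SRSF11-216, has no defined coding sequence.

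Isoform usage was compared with edgeR's diffSpliceDGE, which tests each transcript against the rest of its gene and combines them into a Simes p per gene. With 2 or more transcripts past the filter, 25 members could be tested, with 66 transcripts, and 0 were called at an adjusted p below 0.05 (background 0.318% of 3459 genes). At an unadjusted Simes p below 0.05, 0 members passed (background 1.27%), and the smallest was 0.341 for SRSF9 (adjusted p = 1). With limma's voom and diffSplice, 0 members were called and 5 had an unadjusted p below 0.05, the smallest 0.0161 for HNRNPDL (adjusted p = 0.778), against a background of 5.9% of genes at an unadjusted p by that method. How uncertain the assignment of reads to isoforms was is not in the deposited values and so is not in these tests.

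For the members with the smallest Simes p, the transcript with the smallest p is described. SRSF9-204, a retained-intron transcript, took 1.01%, 0.647% and 0.683% of SRSF9 counts after knockdown and 1.70%, 1.83% and 1.13% in the non-targeting group. Its groups did not overlap, on a mean of 12.3 counts per library, and the log2 fold change relative to the gene was -1.09. The NMD transcript U2AF1-210 took 9.17%, 0% and 41.1% against 37.8%, 29.3% and 28.5%. Both the highest and the lowest share were in the knockdown group. HNRNPA1-204, a coding transcript, took 73.4%, 33.8% and 46.0% against 27.8%, 37.5% and 22.8%, where knockdown library 2 lay below non-targeting library 2 (log2 fold change of 0.72 relative to the gene).

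The next members varied as widely within groups. HNRNPA2B1-206, a retained-intron transcript, took 39.7%, 48.5% and 43.4% against 10.6%, 45.8% and 32.9%. HNRNPF-207, a coding transcript, took 78.5%, 43.9% and 0% against 45.9%, 54.1% and 60.9%, so the knockdown libraries lay on both sides of the others. SRSF10-204 took 24.2%, 20.3% and 30.7% against 17.7%, 45.6% and 28.5%. Of the most counted members, HNRNPU-209, a retained-intron transcript, took 56.1%, 39.1% and 58.6% against 36.0%, 50.5% and 37.7%, and the coding transcript SRSF4-201 took 2.51%, 13.7% and 13.4% against 12.2%, 13.6% and 22.9%. All of these groups overlapped, and the adjusted p of each named transcript was 1 by diffSpliceDGE.

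**Figure D5:**
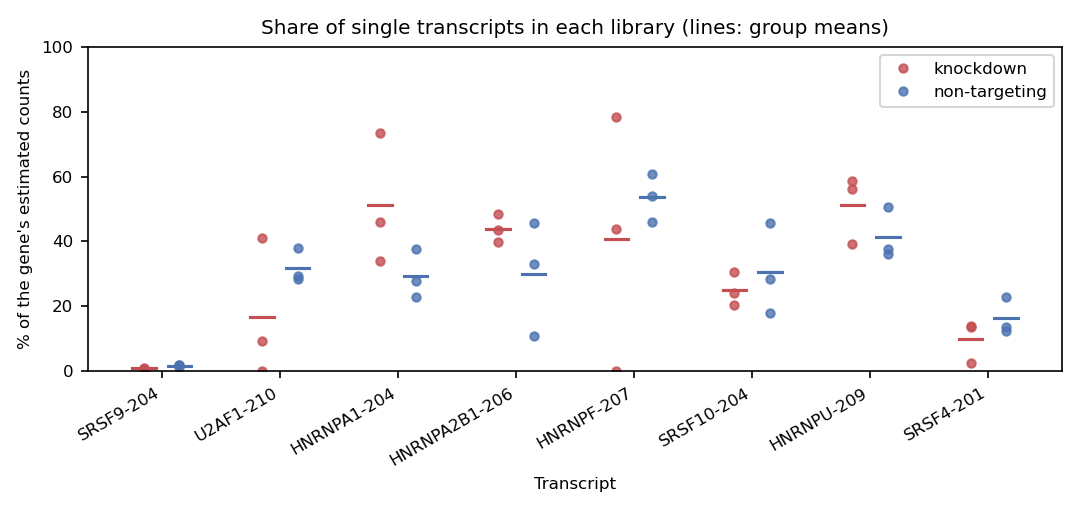
Share of the gene's estimated counts on a single transcript (y axis, %) for 8 named transcripts, with each point 1 library and lines the group means (n = 3 per group). The groups overlap in all but SRSF9-204 (0.78% and 1.55% on average), and the knockdown shares of HNRNPF-207 run from 0% to 78.5%.

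Shares were also read for each member transcript with a mean of at least 5 counts. In 9 of 131 such transcripts the groups did not overlap (background 8.34% of 20469 transcripts), 4 with a higher share after knockdown and 5 with a lower one. QKI-204, the NMD transcript whose stop codon is printed above, took 80.8%, 81.6% and 88.7% of QKI counts after knockdown and 69.3%, 80.4% and 65.9% in the non-targeting group. Non-targeting library 2 lay just below the lowest knockdown library. The coding transcript QKI-208 took 8.598% ± 0.67 against 16.8% ± 4.0 (SD, n = 3). SF3B2-216, annotated with its last intron retained, took 37.8%, 27.4% and 38.3% against 20.4%, 26.3% and 21.9%. HNRNPC-203, a coding transcript, took 38.4% ± 8.5 against 18.8% ± 7.9. The others were CELF1-204, CELF1-208, HNRNPL-213, HNRNPUL1-210 and SRSF9-204. The exact permutation test on 3 against 3 libraries cannot go below 0.1, so no single share could reach 0.05, and a count of 9 of 131 was near the background share.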

How the data were processed

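Total RNA of SKOV3 cells was extracted with TRIzol and sequenced as stranded, ribosomal RNA-depleted libraries (6 samples, 3 per group, grouped by their titles). The authors quantified the reads with kallisto 0.43.0 (version from the submitters' processing notes) and the Ensembl transcript set of GRCh38. They deposited an estimated count, not normalized, for each of 173259 transcripts. The authors' TPM, an abundance per transcript length, and an effective length were deposited beside it. A strand or bias option is not given in the sources used here. Transcripts were matched by identifier to GENCODE release 44 of the same build. The 17741 without a match were left out.

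Estimated counts were summed per gene, rounded, filtered with filterByExpr (minimum count 10), TMM-normalized and compared by the exact test of edgeR 4.0.16 (R 4.3.3) with Benjamini-Hochberg adjustment over 11814 genes. CPM uses TMM-scaled library sizes. Standard errors were computed from log2 CPM between libraries, with a prior count of 2. The biological coefficient of variation was 0.232. Tested members had a median of 52.2 counts per library. Isoform usage used diffSpliceDGE on 15767 transcripts. No 2 libraries matched within sampling noise (chi-square per degree of freedom at least 2.15). Overlap with exons on the opposite strand used bedtools 2.31.1, and sequences were read with samtools 1.23.1 from GRCh38. Scripts were tested on simulated data. This checked the code, not how small a difference could be detected at this depth.

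The members and gene lists were chosen with earlier results of these data known. Per-library values were given for the 3 members with the highest mean CPM and the 2 with the smallest p in each direction in each of 4 role groups, and for isoforms the 6 tested members with the smallest p and the 4 with the most counts. Values of further members (SRSF3, SRSF7, HNRNPC, HNRNPR, HNRNPK, ESRP1) and of DHX38 and RBM8A were chosen after they were seen. Alternatives were edgeR's quasi-likelihood test (also blocked by replicate number), RLE scaling, DESeq2 1.42.0, other filters, counts from length-scaled TPM, a fit of protein-coding genes, no transcripts opposite an exon, limma 3.58.1 for isoforms, other thresholds and units, and each library left out.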

Additional observations from a re-analysis of the deposited data

How the results depend on the processing

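At this depth 12 members had a mean under 10 counts. The count of members called at 2-fold and an adjusted p below 0.05 was 0 under every alternative run except the looser threshold of an unadjusted p alone, which gave 6 down. The members with a lower mean were 34 to 47 and the median was -0.53 to -0.13 when each library was left out (without knockdown replicate 3 and replicate 1). In those fits the members at an unadjusted p below 0.05 were 0 to 12 down (background 0.566% to 5.32%) and 0 up (background 0.402% to 1.83%). With the replicate number as a block (quasi-likelihood test), 3 members were down (background 0.906%) and 0 up (background 0.449%) at an unadjusted p below 0.05. In that fit U2AF1 was at -0.0075, and 0 members were called for level or, with the same block, for isoform usage. The numbers did not pair the samples (correlations of same-numbered deviations -0.40, -0.34 and 0.23).

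The sign turned for some genes. RLE scaling gave -0.0029 for HNRNPH3 and -0.0039 for HNRNPUL2, the filter at 1 CPM gave -0.0038 and -0.0015, and leaving out transcripts opposite an exon gave -0.022 for HNRNPUL2 and -0.0032 for U2AF1. Length-scaled TPM counts gave -0.57 for HNRNPUL2, -0.097 for U2AF1L4, -0.56 for U2AF1 and 0.12 for MBNL1. With the ribosomal protein share as a covariate (added once the values were known), 22 members were lower. At an unadjusted p below 0.05 in that fit, 0 were down (background 1.63%) and 1 up (background 2.56%). There 10 named genes turned: SRSF9 (0.16), SRSF4 (0.23), HNRNPU (0.36), SF3B2 (0.050), SF3B1 (0.057), U2AF1 (-0.24), ESRP2 (-0.051), QKI (0.034), RBFOX2 (0.33) and CELF1 (0.043). Without knockdown replicate 1 and non-targeting replicate 2 together (also chosen after seeing the data), 11 members were down (background 5.62%) and 1 up (background 3.23%) at that p. In that comparison SRSF9 (0.18), SRSF4 (0.18), HNRNPH3 (-0.0063), U2AF1L4 (-0.16), U2AF1 (-0.28) and MBNL1 (0.20) turned. The cause of these turns was not tested.

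With each library left out, the range was -0.22 to 0.19 for SRSF9, -0.48 to 0.22 for SRSF4, -0.69 to 0.025 for HNRNPU, -0.15 to 0.15 for HNRNPH3, -0.35 to 0.31 for HNRNPUL2, -0.21 to 0.11 for SF3B2, -0.039 to 0.27 for U2AF1L4, -0.27 to 0.18 for U2AF1, -0.30 to 0.10 for MBNL1 and -2.15 to 0.075 for HNRNPF-207. Genes that kept their sign also moved by over 1.5 times. Those nearest to 0 without knockdown replicate 1 were HNRNPL (-0.998 to -0.34), HNRNPA1 (-0.90 to -0.45), HNRNPUL2-BSCL2 (-1.77 to -0.88), SRSF6 (-0.86 to -0.41), SF3B1 (-0.89 to -0.27), SF3A3 (-0.50 to -0.16), QKI (-0.58 to -0.075), RBFOX2 (-1.35 to -0.44), CELF1 (-1.003 to -0.18) and ESRP2 (0.036 to 0.23). Other genes were nearest to 0 without a different library. These were SRSF12 (0.21 to 0.52, non-targeting replicate 2), SRSF8 (0.0020 to 0.61, non-targeting replicate 3) and SF3B3 (-0.17 to -0.095, knockdown replicate 2). The difference in the share on NMD and retained-intron transcripts was 2.87 to 8.29 points with each library left out, lowest without non-targeting replicate 1, and 0.226 points on NMD transcripts alone. In isoform usage, the lowest p was 0.0003 for SRSF3 without knockdown replicate 3 (adjusted p = 0.0855).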
